A study of Mus musculus with 292 samples.

Results

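Fos, Fosl2, Jun, Junb and Atf3 encode basic leucine zipper proteins of the AP-1 transcription factor and its close relatives. They were followed across the brains of 292 F2 mice. All probes annotated to the 5 genes were taken from the array table, whatever their values. Each gene had 1 probe, so 5 of 23549 probes, or 5 of 11640 named genes, are described. No probe was missing a value for these genes in any mouse.

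The parents of the cross were 2 inbred strains, C57BL/6J and C3H/HeJ; their F1 animals were intercrossed in both directions, and F2 females and males were used. Chow (4% fat) was given to the age of 8 weeks. A Western diet (42% fat, 0.15% cholesterol) followed for 12 weeks, and brains were taken at 20 weeks following a 12-hour fast. Every mouse had this same history, so all 292 form 1 group, and which mice were female, or came from which direction, was not given. Each brain was hybridised once, labelled with Cy3, against a Cy5-labelled pool of equal portions of all samples, and the dyes were never swapped. The values are ratios of mouse to pool on a log10 scale. They hold no level, so the 5 genes cannot be ranked by abundance and the tissue cannot be checked by the levels of its marker genes. In brain RNA, fewer cells of a type and less RNA per cell cannot be told apart.

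AP-1 is a dimer. A Jun protein (Jun, Junb or Jund) pairs with itself, with a Fos protein (Fos, Fosb, Fosl1 or Fosl2) or with a member of the ATF family such as Atf3, and the dimer binds short palindromic DNA sites. In neurons, Fos and Junb are immediate early genes. Synaptic activity and calcium entry switch them on within minutes through the factors CREB and SRF, without new protein synthesis, and their mRNAs decay quickly. Jun and Atf3 are also known as stress and injury genes of neurons, driven by JNK signalling and the integrated stress response, and Fosl2 is a slower, more stable Fos relative.

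Because CREB and ATF sites are a textbook route of early gene induction, the DNA just upstream of the genes is shown. The windows are the 250 bases before the start of transcription, from RefSeq on GRCm38.p6, printed 5′ to 3′ on the gene's own strand. Capitals mark matches to TGACG (the core of a CREB/ATF site), TGACATCA (an ATF/Jun site) and TATAAA (the box bound by TBP), searched on both strands. Fos, Junb and Atf3 hold the letters of the first motif and Jun those of the second.
Fos: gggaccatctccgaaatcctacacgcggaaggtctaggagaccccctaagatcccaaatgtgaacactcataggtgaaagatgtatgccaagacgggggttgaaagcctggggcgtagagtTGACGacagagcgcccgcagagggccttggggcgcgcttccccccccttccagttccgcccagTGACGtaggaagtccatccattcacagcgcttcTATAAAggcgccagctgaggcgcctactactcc
Junb: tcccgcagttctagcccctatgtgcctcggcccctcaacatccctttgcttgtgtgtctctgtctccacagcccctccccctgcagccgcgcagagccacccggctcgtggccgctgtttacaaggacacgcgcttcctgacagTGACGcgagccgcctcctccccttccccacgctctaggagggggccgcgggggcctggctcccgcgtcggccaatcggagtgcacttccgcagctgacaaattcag
Jun: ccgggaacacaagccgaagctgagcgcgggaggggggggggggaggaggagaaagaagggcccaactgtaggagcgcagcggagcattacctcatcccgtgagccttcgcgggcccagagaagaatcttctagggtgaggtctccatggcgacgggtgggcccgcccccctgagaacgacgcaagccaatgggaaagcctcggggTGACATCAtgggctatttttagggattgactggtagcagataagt
Atf3: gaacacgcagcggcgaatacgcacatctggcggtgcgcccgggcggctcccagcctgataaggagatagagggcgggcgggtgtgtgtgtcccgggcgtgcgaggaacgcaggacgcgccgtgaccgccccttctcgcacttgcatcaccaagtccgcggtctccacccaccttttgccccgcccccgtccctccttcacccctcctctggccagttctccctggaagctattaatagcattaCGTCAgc

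The Fos window (chr12:85473640-85473889, plus strand) held TGACG at -129 to -125 and at -66 to -62, counted from the start of transcription, and TATAAA at -33 to -28. In the Junb window (chr8:84978749-84978998, minus strand) TGACG lay at -106 to -102. Jun (chr4:95052223-95052472, minus strand) had TGACATCA at -45 to -38. In Atf3 (chr1:191183334-191183583, minus strand) the TGACG core was on the opposite strand, as CGTCA at -7 to -3. None of these letters was found in the Fosl2 window (chr5:32136222-32136471, plus strand). Such matches are not rare: of 32851 RefSeq promoter windows of the same length, 17.8% held TGACG, 12.4% held TATAAA and 2.93% held TGACATCA. The full CREB palindrome TGACGTCA (1.55% of windows), which contains TGACG, the AP-1 site TGANTCA (6.75%) and a CArG box, the SRF site (1.47%), had no match in the 5 windows. A match is a string of letters in a window and not a measured binding site.

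Neither the log base nor the direction is stated in the labels. The pool was made from the same mice, so the mean of the linear ratios of a gene should lie near 1. Over all mice this mean was 0.790 for the Y-linked gene Eif2s3y as deposited and 21.6 with the sign turned, and 0.861 against 6.29 for Kdm5d. As deposited it was 0.987 and 0.973 up to number 212, and 0.580 and 0.742 from 213. The likely direction is therefore mouse over pool, although both genes lay well under 1 in the later mice. These means do not settle the log base: read as base 2, they were 0.738 and 0.824 over all mice. On base 2 they were 0.779 and 0.835 up to 212, and 0.695 and 0.813 from 213. Base 10 thus lay nearer to 1 up to 212 and over all mice, and base 2 from 213. Base 10 was assumed, and on base 2 every ratio given here would lie nearer to 1 and fewer mice would pass 1.2-fold, while correlations would not change. Pairs of arrays correlated across probes from -0.640 to 0.797 (median 0.114), as mice measured against their own pool can, and 3.82% of the pairs lay under -0.3. The mouse numbers were split into 151 arrays numbered up to 212 and 141 numbered from 213. The first block holds 74 arrays of 1 spelling of the description text (form 1) and 77 of the other (form 2). What the numbers and spellings stand for was not given, so relations are given with the block means removed and within each block.

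Fos, the founding Fos protein and a widely used marker of recently active neurons, had ratios from 0.777 to 1.60 with a median of 0.945 over 292 mice. Only 84 mice stood above the pool. A long upper tail set the shape: 13 mice were at least 1.2-fold above the pool and 9 at least 1.2-fold below. All 13 carried numbers up to 212, and mouse 60 was highest at 1.60, followed by mouse 71 at 1.46. From number 213 on, the highest Fos ratio was 1.09.

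Junb, a Jun protein that pairs with Fos and is likewise induced by activity, ran from 0.716 to 1.48 with a median of 0.932. It was at least 1.2-fold above the pool in 13 mice, of which 12 were numbered up to 212, and at least 1.2-fold below in 51. The exception above was mouse 349, with a ratio of 1.47. The groups overlapped, but the bulk of the later mice sat low: 69 of 151 mice up to 212 were above the pool, against 7 of 141 from 213.

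Jun, the partner common to most AP-1 dimers, ran from 0.670 to 1.5 with a median of 0.979. It was at least 1.2-fold above the pool in 14 mice and below in 30. Fosl2 was the flattest of the members, with ratios from 0.858 to 1.31 and a median of 0.975. It passed 1.2-fold in 4 mice, all numbered up to 212, and in none below. Atf3, a stress-induced member of the ATF family that often acts as a repressor, had the widest range, from 0.604 in mouse 356 to 1.79 in mouse 300, with a median of 1.03. It was at least 1.2-fold above the pool in 46 mice and below in 22, and both blocks contributed, with 20 and 26 of the high mice.

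**Figure D1:**
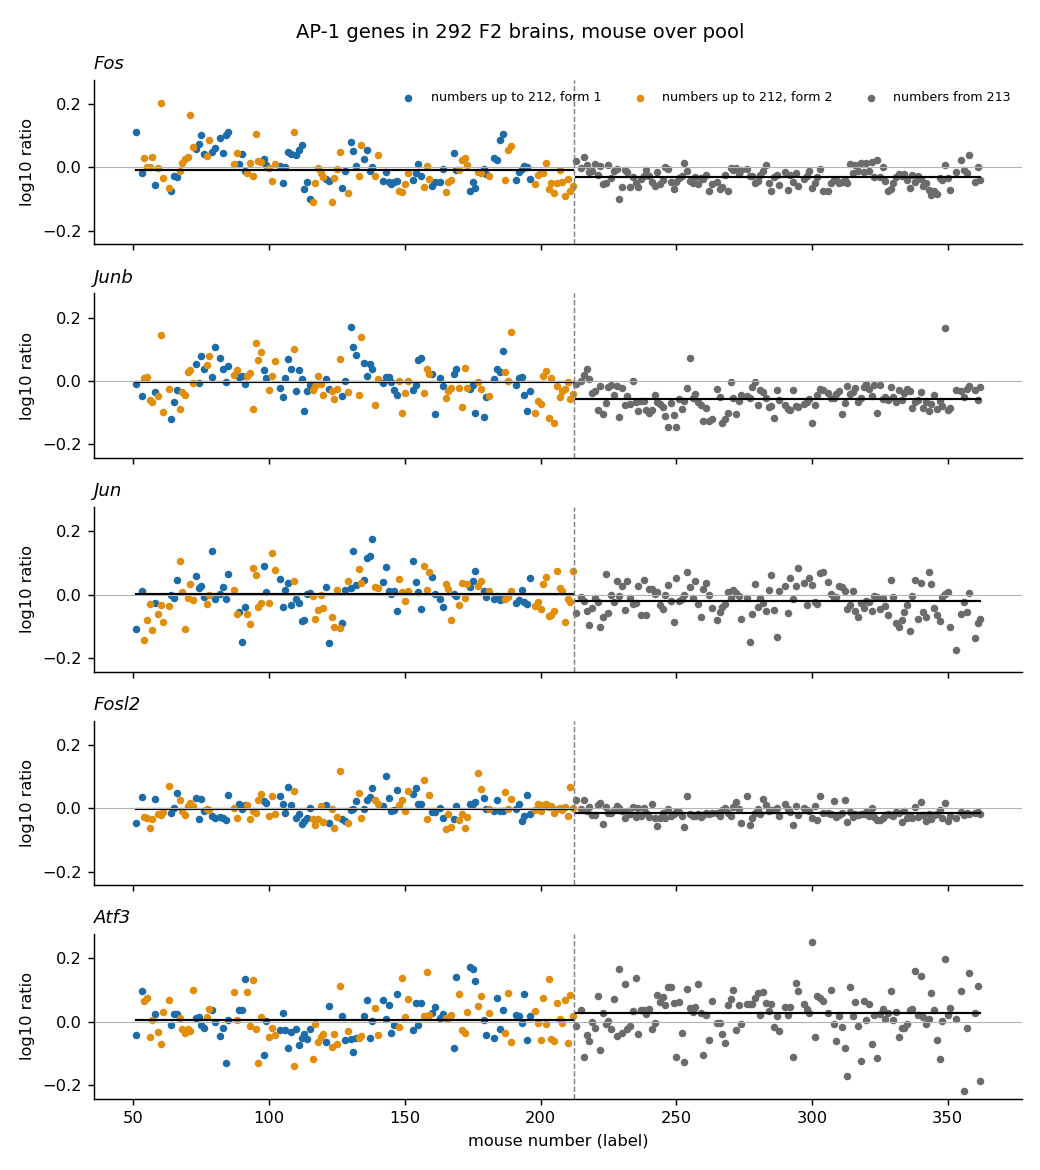
Log10 ratio of mouse to pool for each of the 5 genes (panels) against mouse number, with 1 point per mouse coloured by number block and description form. The high Fos values lie among numbers up to 212, where all 13 mice at least 1.2-fold above the pool are found, while high Atf3 values occur in both blocks.

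The same mice were not high for all 5 genes. Of the 13 mice high in Fos and the 13 high in Junb, 6 were high in both. No mouse was at least 1.2-fold above the pool in Fos together with Jun, Fosl2 or Atf3. The high mice were few, with 14 for Jun, 4 for Fosl2 and 46 for Atf3 beside the 13 for Fos. Groups this small can share few or no mice even when genes are unrelated. The expected overlap was not computed, so the lack of shared mice does not show that these genes were high in different mice. In mouse 60 the Fos ratio was 1.60 and the Junb ratio 1.39, whereas Jun stood at 0.928, Fosl2 at 0.95 and Atf3 at 0.853. Mouse 138, the highest for Jun at 1.5, had a Fos ratio of 0.999, and mouse 300, the highest for Atf3, had a Fos ratio of 0.864.

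The spread across mice was ordinary for this array. The SD was 0.0458 for Fos, 0.0293 for Fosl2, 0.0548 for Jun, 0.0562 for Junb and 0.0682 for Atf3 on the log10 scale (n = 292), beside 0.0495 for the median probe. Fosl2 varied less than most probes, with only 10.1% of probes below it, and Atf3 more than most, with 75.7% below it. Each mouse had 1 array, so these SDs hold measurement error as well as differences between animals.

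Against the pool, the mean log10 ratio was -0.0160 ± 0.00268 (SE, n = 292) for Fos (limma, adjusted p = 2.33e-08) and -0.0279 ± 0.00328 for Junb (limma, adjusted p = 8.56e-15). A call required a mean at least 1.2-fold from the pool with an adjusted p below 0.05. By this rule 0 of the 5 members were called, beside 0.586% of all probes. In limma 5 of 5 had an unadjusted p under 0.05, but 16104 of 23549 probes passed the adjusted p with no fold threshold. The pool holds these same mice and the dyes were not swapped, so an offset from it cannot be read as a property of the genes. The offset lay in the later block. Up to 212 the mean was -0.00217 for Fos (limma, adjusted p = 0.911) and -0.00262 for Junb (adjusted p = 0.896), and from 213 it was -0.0309 and -0.0549.

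Between the number blocks, Junb showed the widest shift. Its mean was lower from number 213, with a log10 difference of -0.0523 ± 0.00583 (SE; limma, adjusted p = 2.25e-16), which is a ratio of 0.887. Fos differed by -0.0287 ± 0.00510 (adjusted p = 1.28e-07), Jun by -0.0202 ± 0.00630 (adjusted p = 0.00284) and Fosl2 by -0.0157 ± 0.00333 (adjusted p = 9.03e-06). Atf3 differed by 0.0149 ± 0.00792 and was not called (adjusted p = 0.0867), though it passed with arrays centred on their median (0.0177) and without the tenth of arrays with the largest SD (0.0158). With 66.7% of all probes called between the blocks (36.1% lower and 30.5% higher from 213), the count of 4 in 5 members is near the background. The blocks overlapped for each of the 5 genes.

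Other early genes shifted between the blocks in the same comparison. Of 29 measured neuronal activity genes, 18 were lower and 4 higher from 213, with a median difference of -0.0254. A hand-written list, called feedback inhibitors here, holds phosphatases of MAP kinases but also other early genes such as Ier2, Ier5 and Btg2. Of its 19 measured genes, 15 were lower and 0 higher, and the median was -0.0301. Over all named genes the median was -0.00315, and of all probes 36.1% were called lower and 30.5% higher from 213. Many other lists shifted too. All 6 measured erythrocyte markers, 10 of 16 clock genes and 6 of 9 oligodendrocyte markers were lower, while 8 of 14 glucocorticoid responsive genes, 5 of 7 choroid plexus markers and 4 of 6 neuronal markers were higher. The 7 anterior pituitary markers had a median difference of 0.119, with 1 called in each direction. The part of these in the shift of the AP-1 genes was not tested.

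The width of the distribution also differed between blocks. The Fos SD was 0.0545 up to number 212 (n = 151) and 0.0273 from 213 (n = 141), a ratio of 0.50, and 3.0% of probes had a smaller ratio. For Fosl2 the SDs were 0.0348 and 0.0188 (ratio 0.539, 4.48% of probes smaller), and for Junb 0.0570 and 0.0408. With absolute deviations from the block median as the measure, a test chosen after the data were seen, the spread was smaller from 213 for Fos (limma, adjusted p = 1.68e-08), Fosl2 (adjusted p = 1.69e-07) and Junb (adjusted p = 0.00145). Jun (adjusted p = 0.258) and Atf3 (adjusted p = 0.399) did not pass. Of all probes, 35.5% were called smaller by this test, so a count of 3 in 5 is read only against that background.

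Of the 5 genes, Fos was the one called for a trend over mouse number inside the blocks. Its slope was -0.0264 ± 0.00548 (SE) per 100 numbers (limma, adjusted p = 6.81e-05), beside 17.9% of probes called and 9.16% called lower. Median Fos ratios were 1.08 for the 38 mice numbered 51 to 92, 0.997 for 93 to 131, 0.940 for 132 to 172 and 0.955 for 173 to 212. From 213, the medians of 4 successive runs of numbers lay between 0.917 and 0.943. Pearson's r of Fos with number was -0.273 (permutation p = 1e-05, the smallest 100000 permutations within blocks can give) and Spearman's rho -0.235 (permutation p = 6e-05). It was -0.373 up to 212, with -0.282 in form 1 and -0.432 in form 2, and -0.0780 from 213. Without the 2 mice farthest in number it was -0.265. The slope was -0.00493 from 213, where it did not pass, and the difference between the blocks was not tested. Of the 5 such relations computed, the other members had adjusted p-values from 0.380 to 0.930.

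The description forms within the first block did not separate the members. In limma 0 of 5 differed between form 1 and form 2 (adjusted p from 0.796 to 0.998; 0 with an unadjusted p under 0.05), beside 1.07% of probes called.

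Fos and Junb rose and fell together across mice. With the block means removed, Pearson's r between them was 0.558 (limma, adjusted p = 1.78e-21, the larger of both fits; permutation p = 1e-05) and rho was 0.493 (permutation p = 1e-05). The relation was positive in both blocks and both forms: r was 0.599 in form 1 and 0.662 in form 2 up to 212, and 0.346 from 213. It was 0.544 without the 2 mice farthest from the Fos median. Removing the first principal component of all probes left r at 0.553.

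Jun, the partner most often named with Fos, was not called with it. The block-adjusted r between Fos and Jun was -0.0127 (permutation p = 0.837), with 0.0287 up to 212 and -0.120 from 213. Fos and Fosl2 had r = -0.0117 (permutation p = 0.862), and Jun and Junb 0.0624 (permutation p = 0.303). In the blocks these were -0.0619 and 0.188 for Fos and Fosl2, and 0.168 and -0.126 for Jun and Junb, so each changed sign.

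Atf3 and Fos had a negative r that did not reach the size required. Their r was -0.179 (limma, adjusted p = 0.0214; permutation p = 0.00104), with -0.253 up to 212 and -0.0887 from 213. With Fosl2 it was 0.163 (adjusted p = 0.0115), with Junb -0.116 (adjusted p = 0.0932) and with Jun 0.0671 (adjusted p = 0.326). These did not keep their direction. With the first principal component removed, r with Fosl2 was -0.206 (adjusted p = 0.00214) and with Jun -0.194 (adjusted p = 0.00472), and with Junb it was -0.235 up to 212 and 0.0262 from 213.

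Fosl2 and Jun had an r of 0.322 (limma, adjusted p = 1.30e-07; permutation p = 1e-05), with 0.369 up to 212 and 0.231 from 213. This pair did not keep its sign. With the first principal component of all probes removed, r was -0.149, and with each array centred on its median it was 0.269, under the limit of 0.3. Of 10 pairs of members, Fos with Junb and Fosl2 with Jun were the ones called at an adjusted p under 0.05 and an r of at least 0.3 either way.

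Slopes between members were also compared between the blocks in limma. Of 20 slopes, 3 differed. With Junb as predictor 1 of 4 differed, that of Fos, which was 0.611 up to 212 and 0.231 from 213 (adjusted p = 0.00305), beside 7.65% of all probes. With Atf3 as predictor 2 of 4 differed, those of Fos and Junb, beside 36.5%. With Fos, Fosl2 and Jun as predictors 0 of 4 differed (0, 0 and 3 at an unadjusted p under 0.05), beside 23.8%, 27.8% and 21.1% of all probes.

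**Figure D2:**
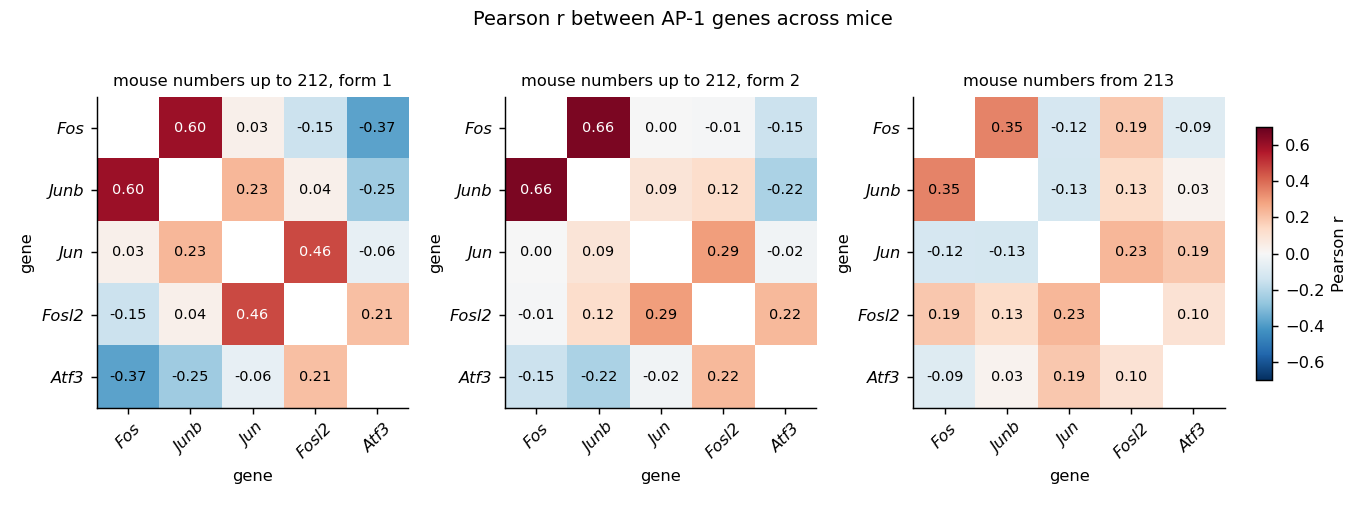
Pearson r between the 5 genes across mice, in the mice numbered up to 212 of description form 1 (n = 74) and form 2 (n = 77) and in the mice numbered from 213 (n = 141). Fos with Junb is the highest cell in each panel, at 0.599, 0.662 and 0.346.

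**Figure D3:**
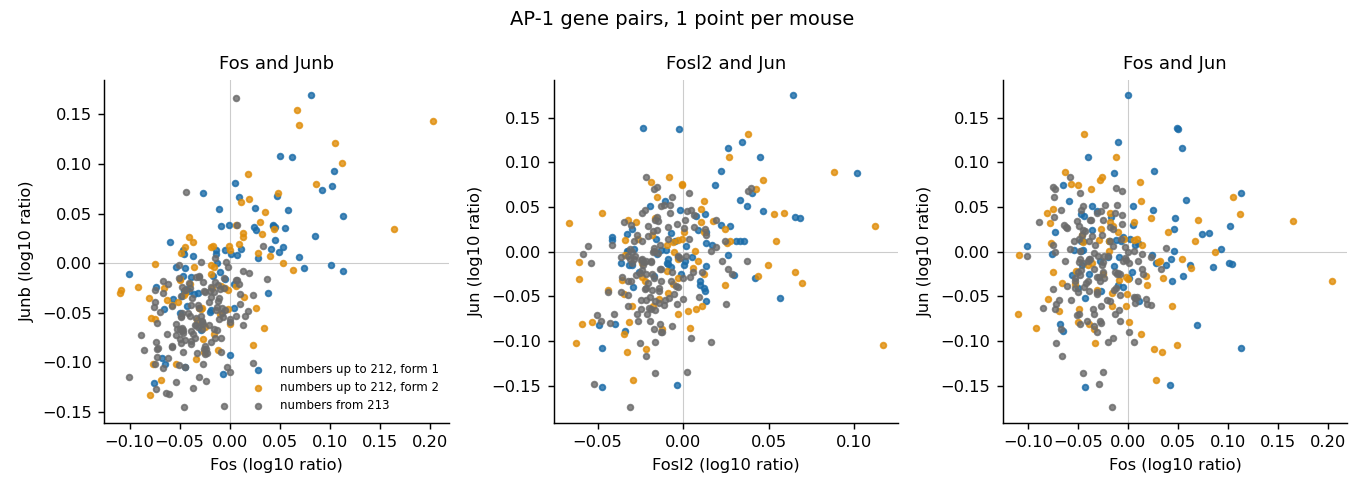
Log10 ratios of 3 gene pairs, 1 point per mouse, coloured by number block and description form. Fos and Junb line up along the diagonal (block-adjusted r 0.558), Fosl2 and Jun less so (0.322), and Fos and Jun form a round cloud (-0.0127).

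By the same rule, 105 of 23548 other probes moved with or against Fos (0.446%) and 1933 with Junb (8.21%), but 5052 with Jun (21.5%), 4767 with Atf3 (20.2%) and 9159 with Fosl2 (38.9%). These counts depend on the mice used, and so does their order. The Fos count was 401 in the mice up to 212 and 2449 in those from 213, where the Junb count was 1406, against 4012 up to 212. One of the 4 other members was called for Fos (Junb), 1 of 4 for Junb (Fos), and 1 of 4 for Fosl2 and for Jun (each other), to be read against those shares. For Atf3 it was 0 of 4, with 3 of 4 at an unadjusted p under 0.05. The first principal component of the block-centred probes, which held 12.1% of their variance, correlated with Fosl2 at 0.739, Jun at 0.549 and Atf3 at 0.393, but with Fos at -0.177 and Junb at -0.0892 (its sign is arbitrary). The array median correlated with Fosl2 at 0.509 and Jun at 0.430, against 0.0889 for Fos and 0.126 for Junb. The part of these array-wide measures in the relations of Fosl2, Jun and Atf3 was not tested beyond the values with the component removed.

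The genes whose ratios were most like those of Fos were led by Egr2, Dusp1 and Arc. By block-adjusted r over 292 mice, the first 10 named genes were Egr2 (0.624), Dusp1 (0.620), Arc (0.599), Btg2 (0.591), Junb (0.558), Ccn1 (0.547), Ier2 (0.530), Ptgs2 (0.519), Egr4 (0.509) and Klf2 (0.455). Egr2 is a zinc finger factor of the Egr family, and its r was 0.725 up to 212 and 0.655 from 213. Arc, a postsynaptic protein of plasticity, had 0.666 and 0.664. Dusp1, a phosphatase that switches off MAP kinases, had 0.693 and 0.488. Btg2, an antiproliferative early gene, had 0.689 and 0.226. With the component removed, r for these 10 lay between 0.484 and 0.634. At the other end stood Plin4, a lipid droplet protein induced by glucocorticoids, at -0.447 (-0.481 and -0.373 in the blocks).

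Of the 29 measured neuronal activity genes, 15 moved with Fos and 0 against it, with a median r of 0.313. Of all probes 0.331% moved with Fos and 0.115% against it, and the median over all named genes was 0.0109. These shares are those of the fit over both blocks. Within a block more probes were called with or against Fos, 401 up to 212 and 2449 from 213. Activity genes called within a block were not counted, and their median r was 0.318 up to 212 and 0.337 from 213. Beside those above, the 15 included Nr4a2 (0.437), Nr4a1 (0.416) and Egr1 (0.394), which are transcription factors, and Bdnf (0.344), a neurotrophin. Not every activity gene took part. Npas4, a neuron-specific early factor, had an r of 0.0546 (-0.0724 and 0.339 in the blocks), Egr3 0.0549 and Nr4a3 0.0454. Of the 19 genes of the feedback list, 3 moved with Fos, namely Dusp1 and the early genes Btg2 and Ier2.

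With 0.446% of all probes called with or against Fos, a count of 0 in a short list is what the background gives. Of 9 other members of the AP-1 family 0 were called in limma, with 4 at an unadjusted p under 0.05, and the median r was 0.0273. Fosb has no probe named here. Likewise 0 of 12 upstream kinases and SRF/ELK factors were called (4 at an unadjusted p under 0.05) and 0 of 19 later AP-1 target genes (8 at an unadjusted p under 0.05). Among 90 markers of brain cell types, regions and adjoining tissues in 12 lists, 1 was called with Fos (Tek, an endothelial receptor, at 0.367) and the list medians ran from -0.0938 to 0.144.

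Activity genes and genes of the feedback list also moved with Junb. Its 10 most alike genes were Egr4 (0.639), Ier2 (0.582), Fos (0.558), Csrnp1 (0.555), Plk3 (0.555), Sik1 (0.547), Cnn2 (0.540), Ier5l (0.538), Man2b2 (0.531) and Tesk1 (0.530). Egr4, another Egr factor, had r = 0.785 up to 212 and 0.494 from 213. Of 29 activity genes 11 moved with Junb and 0 against it (median r 0.240). Of the 19 genes of the feedback list, 7 moved with it and 0 against (median r 0.215). Beside these, 5.39% of all probes moved with Junb and 2.82% against it, and the median over named genes was 0.0179. The 7 were Ier2, Sik1, Dusp1 (0.520), Btg2 (0.496), Dusp5 (0.472), Spry1 (0.452) and Ier5 (0.395). Jund, the constitutive Jun protein, also moved with Junb (0.432, with 0.522 and 0.198 in the blocks), as did Srf (0.346), the factor that binds CArG boxes. Among the 90 markers 5 moved with Junb and 0 against it, a share near that of all probes, and the list medians ran from -0.0736 to 0.211. Their part in the Junb values was not tested.

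**Figure D4:**
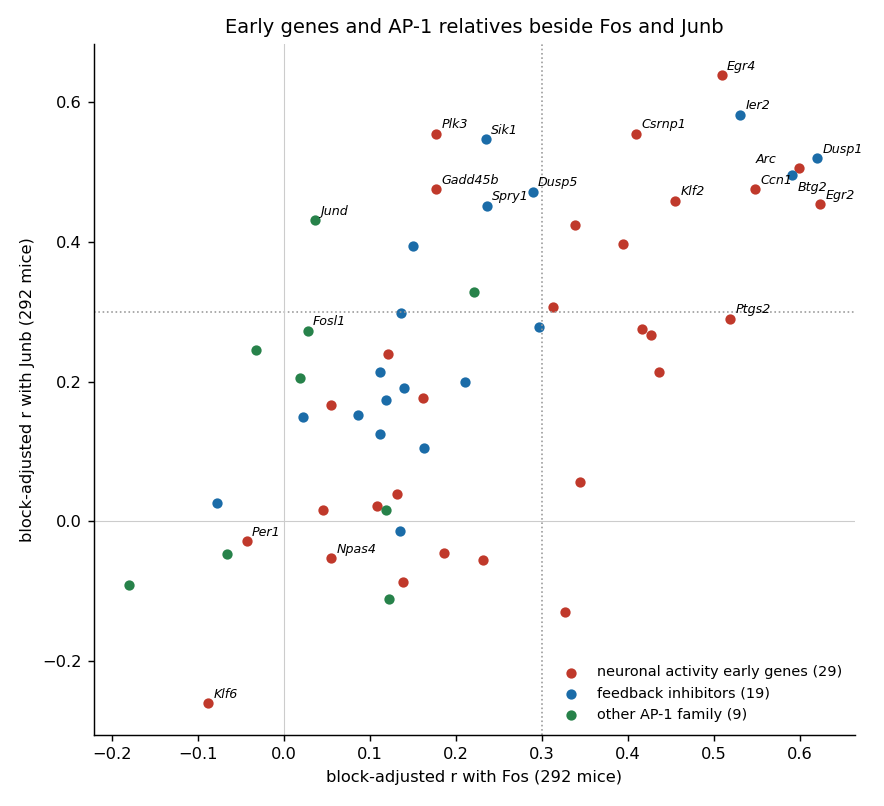
Block-adjusted r of each gene in the activity, feedback and AP-1 family lists with Fos (horizontal axis) and with Junb (vertical axis), 1 point per gene over 292 mice. The activity genes reach to the upper right, with Egr2 at 0.624 and Egr4 at 0.509 on the Fos axis, while the AP-1 relatives lie between -0.181 and 0.220 on that axis.

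The genes most like Jun were Atp8b2 (0.710), a phospholipid transporter, Kdelr1 (0.654), a receptor that returns proteins to the endoplasmic reticulum, and Rogdi (0.640), followed by Rom1, Nfkbil1, Taok2, Spr, Stk32c, Gng13 and Acads (0.606 to 0.639). With the first principal component removed, Atp8b2 had 0.566 and Kdelr1 0.428. Of 29 activity genes 3 moved with Jun (Egr3 0.491, Npas4 0.403 and Ccn1 0.333) and 7 against it, among them Bdnf (-0.423), Klf10 (-0.420) and Ptgs2 (-0.376), beside 10.1% and 11.4% of all probes. Only Ccn1 and Egr3 of these kept an absolute r over 0.3 with the component removed (0.337 and 0.321). Within the family, Jund (0.439) and Batf (0.383) moved with Jun and Mafg (-0.438) against it. Of 19 genes of stress and nerve injury, 1 moved with Jun and 3 against it, and their median r was 0.128. The lowest of them was Asns, asparagine synthetase and a target of the integrated stress response, at -0.623 (-0.720 and -0.458 in the blocks).

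Fosl2 was followed by many probes. Cadm4 (0.936), an adhesion molecule, Myo19 (0.923), a mitochondrial myosin, and Gja4 (0.922), a connexin of vessels, led, and the 10th gene, Casq2, was still at 0.879. These stayed between 0.766 and 0.856 with the first principal component removed. Mef2d, an activity-regulated transcription factor, had an r of 0.840 with Fosl2 (0.917 and 0.642 in the blocks). Of 29 activity genes 4 moved with Fosl2 and 5 against it, beside 21.3% and 17.6% of all probes. Among the 90 markers 10 moved with it and 15 against, the latter led by Gad1, the GABA-synthesising enzyme of inhibitory neurons (-0.621, and 0.0657 with the component removed).

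Atf3 was followed by Milr1 (0.836), Skor1 (0.806), Onecut3 (0.804), Igf2bp3 (0.779) and, down to 0.772, LIPN, Zswim5, Krt18, Syt9, Pzp and Kcnk7. Milr1, a mast cell receptor, had 0.895 up to 212 and 0.790 from 213, and with the component removed the 10 stood between 0.723 and 0.803. Of 19 genes of stress and nerve injury, 3 moved with Atf3 (Sox11 0.520, Sprr1a 0.359 and Ddit3 0.304, the last a factor of the integrated stress response) and Gap43, a growth cone protein, against it (-0.382), beside 10.3% and 9.93% of all probes. Per1, a clock gene that also responds to glucocorticoids, had an r of 0.629 with Atf3 (0.852 and 0.383 in the blocks), and Maff, a small Maf factor, 0.591. Per1 was the highest gene of each list that holds it, which are the glucocorticoid, clock and activity lists. Of 14 glucocorticoid responsive genes, 1 moved with Atf3 and 0 against it (median r 0.0997). Of 16 clock genes, 2 moved with it and 4 against (median r -0.0870). Of 29 activity genes 3 moved with Atf3, Per1 among them, and 1 against. Among the 90 markers 5 moved with and 5 against it, fewer than those shares of all probes would give, and the list medians ran from -0.273 to 0.106. Their part in the Atf3 values was not tested.

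**Figure D5:**
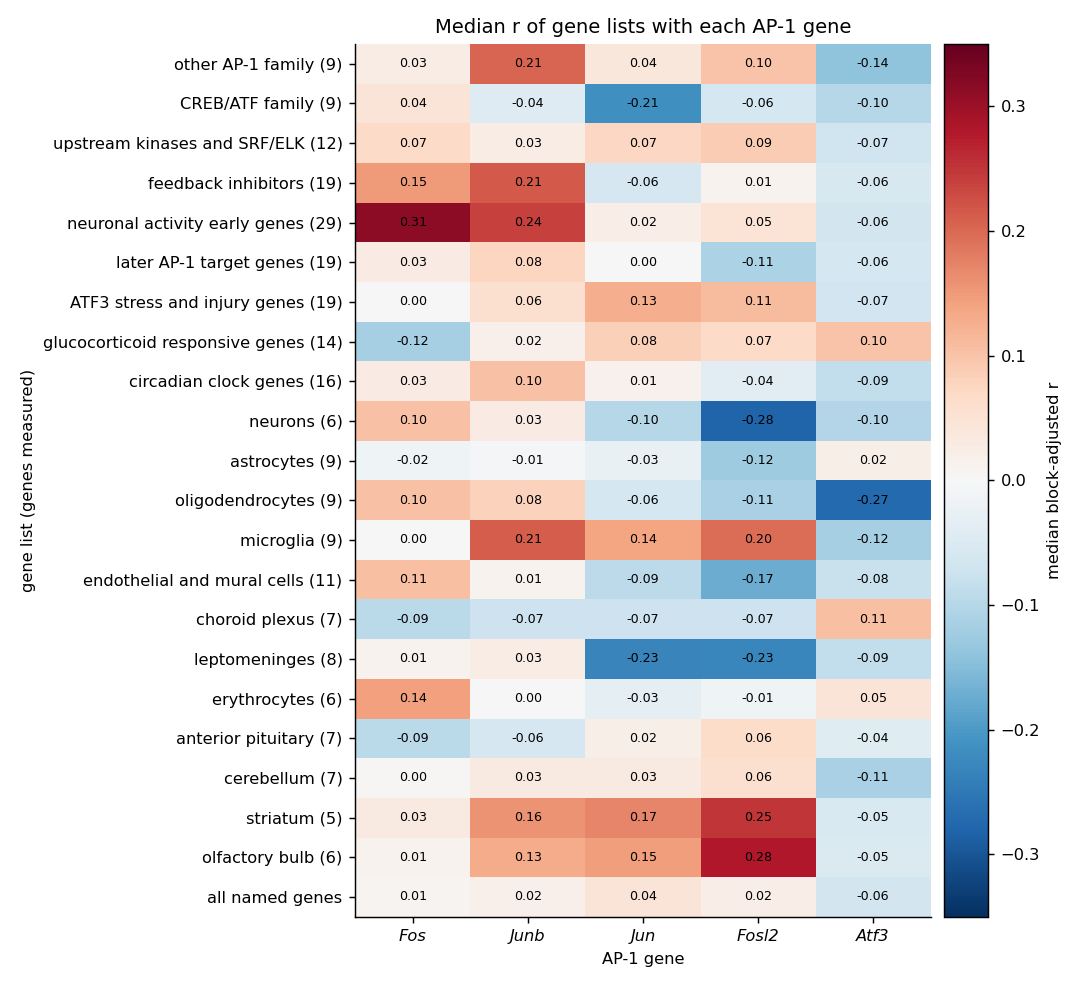
Median block-adjusted r of each gene list (rows, with the number of genes measured) with each AP-1 gene (columns), over 292 mice, with all named genes in the bottom row. The activity genes stand at 0.31 with Fos and 0.24 with Junb, and at 0.02, 0.05 and -0.06 with Jun, Fosl2 and Atf3.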

How the data were processed

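The authors deposited 1 value per probe and array, taken here as a log10 ratio of mouse to pool; the base was assumed. How images were read, corrected for background and normalized is not given in the sources used here. Signal over background is unknown, so precision is stated from the number of arrays alone. Of 23574 probes, 25 missing on more than 5% of arrays were left out, and 252 gaps took the mean of their probe. Of 13665 probes annotated to 1 gene, 12662 matched the GRCm38.p6 gene table; 48 had several genes and 9861 none.

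Each probe was fitted on each member with number block as a term in limma 3.58.1 (R 4.3.3), with Benjamini-Hochberg adjustment over all probes. Calls needed an adjusted p under 0.05 and a block-adjusted r of at least 0.3. Permutations were made within blocks (numpy 2.4.6), with ranks from scipy 1.17.1. For genes named as most alike, the 10 highest r were taken. Activity, feedback, family, stress and marker genes came from hand-written lists. The members and lists were chosen with earlier results of these data known, and the promoter motifs after the windows were read. The fits were tested on simulated data. The simulated probes had independent noise, so that test does not cover patterns shared by many probes of an array. Alternatives changed the block term, scaling, component, ranks, arrays and thresholds.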

Additional observations from a re-analysis of the deposited data

Results flagged for a closer look

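Of 20 slopes between members, each with the other as predictor, 3 differed between the number blocks in limma. The slope of Fos on Junb was 0.611 up to number 212 and 0.231 from 213, a difference of -0.380 ± 0.0887 (SE; adjusted p = 0.00305), beside 7.65% of all probes whose relation with Junb differed. The slope of Junb on Fos did not differ by this test (0.666 and 0.518, adjusted p = 0.466). The slope of Fos on Atf3 was -0.221 and -0.0329, a difference of 0.189 (adjusted p = 0.0346), and that of Junb on Atf3 was -0.215 and 0.0145, a difference of 0.230 (adjusted p = 0.0248), both beside 36.5% of probes whose relation with Atf3 differed. The part of the smaller Fos and Junb spread from 213 in these differences was not tested.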

How the results depend on the processing

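Over the alternatives run, 97 of the values for pairs of members kept their sign and side of the threshold, 19 changed sign and 4 lost the call; Fos with Junb kept its call in all of them. With the first principal component removed, Fosl2 and Jun had r = -0.149, Fosl2 and Atf3 -0.206, Jun and Atf3 -0.194, Fos and Fosl2 0.179 and Fos and Jun 0.103. Fos and Fosl2 had 0.0738 with no block term, 0.00641 with arrays scaled by their SD, 0.0456 by ranks and 0.188 from 213. Fos and Jun had 0.0461 with no block term, 0.00607 scaled, 0.0287 up to 212, 0.0203 without the tenth of arrays with the largest SD and 0.0343 in form 1. Jun and Atf3 had -0.0409 up to 212, -0.0589 in form 1 and -0.0229 in form 2; from 213, Jun and Junb had -0.126 and Junb and Atf3 0.0262. Fosl2 and Jun lost the call with arrays centred (0.269), by ranks (0.293), from 213 (0.231) and in form 2 (0.292).

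The number of probes called with a member moved by over 1.5 times in 21 settings and stayed within that in 49. For Fos it was 441 with no block term, 401 up to 212, 2449 from 213, 69 without the tenth of arrays, 28 in form 2 and 10 at an r of at least 0.5. For Junb it was 6302 with no block term, 4012 up to 212, 4716 in form 1, 4387 in form 2 and 16 at 0.5. For Jun it was 813 with the component removed, 7818 up to 212, 8765 and 7906 in forms 1 and 2, and 631 at 0.5. For Fosl2 it was 1518 with the component removed and 2642 at 0.5, and for Atf3 7321 up to 212, 8991 in form 1 and 1272 at 0.5. The fits on 1 block or form hold fewer mice.

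Probes called against the pool numbered 16104 with no fold threshold, 346 with array weights, 36 up to 212 and 1638 from 213; up to 212 the means of Fosl2 and Jun were 0.00163 and 0.000384. The trend over number was called for 8895 probes up to 212. From 213 it was -0.00803 for Fosl2, -0.0191 for Jun and 0.00831 for Junb per 100 numbers, and for Jun it was -0.00188 without the tenth of arrays. Fits within the description forms were added after the data were seen, as were those of the trend within blocks. The cause of these changes, including the number of mice, was not tested. No paired analysis was possible because all mice form 1 group.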

Other observations

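Of 16 measured clock genes, 2 moved with Fos and 0 against, beside 0.331% and 0.115% of all probes. They were Nfil3, a repressor of clock output genes (r = 0.428, with 0.489 up to 212 and 0.403 from 213), and Rorb (0.336, with 0.305 and 0.445), and the list's median r was 0.0293. The shares for Fos are those of the fit over both blocks. Within a block more probes were called with or against Fos, 401 up to 212 and 2449 from 213. For the other members the counts are given beside the shares of all probes, and their difference was not tested. With Junb 1 moved and 1 against (5.39% and 2.82% of all probes), with Jun 1 and 2 (10.1% and 11.4%), with Fosl2 2 and 2 (21.3% and 17.6%) and with Atf3 2 and 4 (10.3% and 9.93%). The time of day at which each mouse was killed was not given in the labels.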
